A study of Mus musculus with 8 samples.

Results

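The hemidesmosome genes Itgb4, Itga6, Itga3, Dst, Plec and Cd151 were taken by symbol from a table of 12964 genes, and all 6 were present in it. The levels were measured by RNA sequencing in mouse PyMT cells, a line from a primary mammary tumour driven by the polyoma middle T oncogene, labelled wild type (WT) in every sample. The cells had been sorted by flow cytometry into a population that carries the surface protein CD90 (CD90pos) and a population that lacks it (CD90neg). Each population was either a control or was given interferon gamma (IFNg) at 10 IU/ml for 24 h. The 4 groups were thus CD90pos control, CD90pos IFNg, CD90neg control and CD90neg IFNg, each with 2 libraries that the labels distinguish by the letters A and B. All groups come from a single cultured line, and nothing in the labels says that A and B were separate cultures or tumours.

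Hemidesmosomes are the junctions by which epithelial cells, including the basal cells of the mammary gland, hold on to the basement membrane. Their core is an integrin made of the products of Itga6 and Itgb4, which binds laminin outside the cell. Plectin, the product of Plec, and the epithelial form of dystonin, the product of Dst, tie that integrin to keratin filaments inside it. Itga3 encodes the alpha subunit of a second laminin receptor, whose beta subunit comes from Itgb1, and the tetraspanin Cd151 associates with both receptors in the membrane. In carcinoma cells the Itgb4 product is also known as a signalling partner of growth factor receptors.

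The libraries held between 31243646 and 40899909 recovered reads, and every member was covered by at least 8342 reads in every library, so that counting error was about 1% of a value or less. Levels are given in normalized reads, the authors' scale, on which 1 read was worth between 0.851 and 1.12. The library pairs A and B stood apart: of the marker lists, the summed level of the basal genes was between 74326 and 124331 in the A libraries and between 166072 and 589760 in the B libraries, and that of 10 of 12 fibroblast and matrix genes was between 284368 and 567637 in A and between 49520 and 148425 in B. The sum of the 17 luminal genes was between 287713 and 596009 in A and between 797552 and 1022640 in B. Basal and luminal sums were thus both higher in B. Single genes weighed heavily on the basal sum: in CD90pos control cells Acta2 was at 3658 in A and 235195 in B. The leukocyte list had 6 of its 18 genes in the table, without Ptprc among them. Its sums were from 988 to 2133 in A and from 179 to 229 in B. The endothelium and pericyte list had 4 of 11, with sums from 5358 to 16128. Every gene of the table reached at least 43.4 normalized reads in some library, so no measured marker could be at 0 in all of them. The epithelial gene Epcam was between 9200 and 21285. Thy1, which encodes CD90, was at 283 and 1495 in the CD90pos control libraries and 20.6 and 16.6 in the CD90neg control libraries. In bulk RNA, fewer cells of a type and less RNA per cell cannot be told apart.

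The table gives 1 total per gene, which matters most for Dst, a gene with several starts whose transcripts serve different tissues. RefSeq promoter sequences (build GRCm38.p6) were at hand for 3 of the 6 members, Dst, Itga3 and Cd151, and not for Itgb4, Itga6 and Plec. The sequences shown are the 250 bases before a start, read 5′ to 3′ on the gene's strand. Both Dst starts at hand are given because the table sums the reads of all Dst transcripts, of which GENCODE lists 20. The main starts of Itga3 and Cd151 are given because IFNg fold changes of these genes had opposite signs in CD90pos cells, though neither passed the test there. Capitals mark matches to 4 short motifs searched on both strands: GAS (TTCNNNGAA), an element through which IFNg acts on genes; the core of the interferon-stimulated response element, ISRE (GAAANNGAA); AP-1 (TGANTCA); and the GC box (GGGCGG).
Dst, chr1:34011345-34011594, plus strand: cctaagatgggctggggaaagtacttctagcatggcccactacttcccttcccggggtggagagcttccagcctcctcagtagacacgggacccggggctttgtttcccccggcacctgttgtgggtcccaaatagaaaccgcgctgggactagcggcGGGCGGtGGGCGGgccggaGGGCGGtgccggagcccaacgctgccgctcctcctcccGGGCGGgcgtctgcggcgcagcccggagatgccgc
Dst, chr1:34160010-34160259, plus strand: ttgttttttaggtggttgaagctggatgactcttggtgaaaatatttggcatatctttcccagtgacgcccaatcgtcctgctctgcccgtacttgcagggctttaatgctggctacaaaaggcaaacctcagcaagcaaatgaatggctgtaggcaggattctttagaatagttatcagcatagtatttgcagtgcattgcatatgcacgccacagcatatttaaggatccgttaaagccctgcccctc
Itga3, chr11:95076715-95076964, minus strand: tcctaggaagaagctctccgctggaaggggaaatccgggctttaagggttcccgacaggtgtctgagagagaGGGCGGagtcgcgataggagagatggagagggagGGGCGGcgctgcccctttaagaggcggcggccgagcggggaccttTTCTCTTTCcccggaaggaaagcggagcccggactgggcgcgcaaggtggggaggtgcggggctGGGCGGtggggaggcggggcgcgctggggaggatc
Cd151, chr7:141467112-141467361, plus strand: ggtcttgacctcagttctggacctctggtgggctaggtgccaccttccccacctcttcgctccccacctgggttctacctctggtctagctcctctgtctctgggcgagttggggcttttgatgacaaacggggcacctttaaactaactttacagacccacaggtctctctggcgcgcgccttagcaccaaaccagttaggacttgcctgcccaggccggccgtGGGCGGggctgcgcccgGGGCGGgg
The first Dst window held 4 GC boxes and the second held none of the motifs. Within 100 nucleotides of the second start, GENCODE places the starts of 3 protein-coding Dst transcripts, the longest of 16340 nucleotides in 84 exons. It places no start of a protein-coding Dst transcript that near the first. The Itga3 window held 3 GC boxes and 1 ISRE core, printed as its reverse complement TTCTCTTTC, and the Cd151 window held 2 GC boxes. None of the 4 windows held a GAS or AP-1 match. Of 32851 mouse promoter windows of the same length, 32.7% held a GC box, 7.13% an ISRE core, 7.02% a GAS match and 6.75% an AP-1 match, so these matches are a description of letters and not of sites in use.

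The 6 genes differed widely in level once divided by length. Per kilobase of annotated exons, Itga3 was at 13308 ± 2954 normalized reads (SD, n = 8 libraries), rank 83 of 12949 genes with a length. Cd151 followed at 4026 ± 765, Itgb4 at 2615 ± 594, Itga6 at 1673 ± 268, Plec at 1340 ± 343 and Dst at 347 ± 76.1. Itga3 lay above all the other members in every library, and Dst lay below them in every library and ranked 4801 by its mean. The place of Dst rests on the length used, 41155 nucleotides of exons from all 20 annotated transcripts. Per kilobase of its longest transcript Dst was at 614. The total does not show which transcripts were present, so its level by the length of a shorter form is not known. Plec and Itga6 overlapped in their ranges over the libraries, as did Itga6 and Itgb4 and, at their edges, Itgb4 and Cd151. The order of Itga6 and Itgb4 depends on the length used: per kilobase of the longest transcript Itga6 was at 3504 and Itgb4 at 2955. By that length Plec (at most 2346) lay below Itga6 (at least 2556) without overlap. Itgb4 (at most 3871) likewise lay below Cd151 (at least 4570). No member was near absence in any library, and between its lowest and highest library each gene spanned a narrow range, from 1.65-fold for Itga6 to 2.12-fold for Plec.

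**Figure D1:**
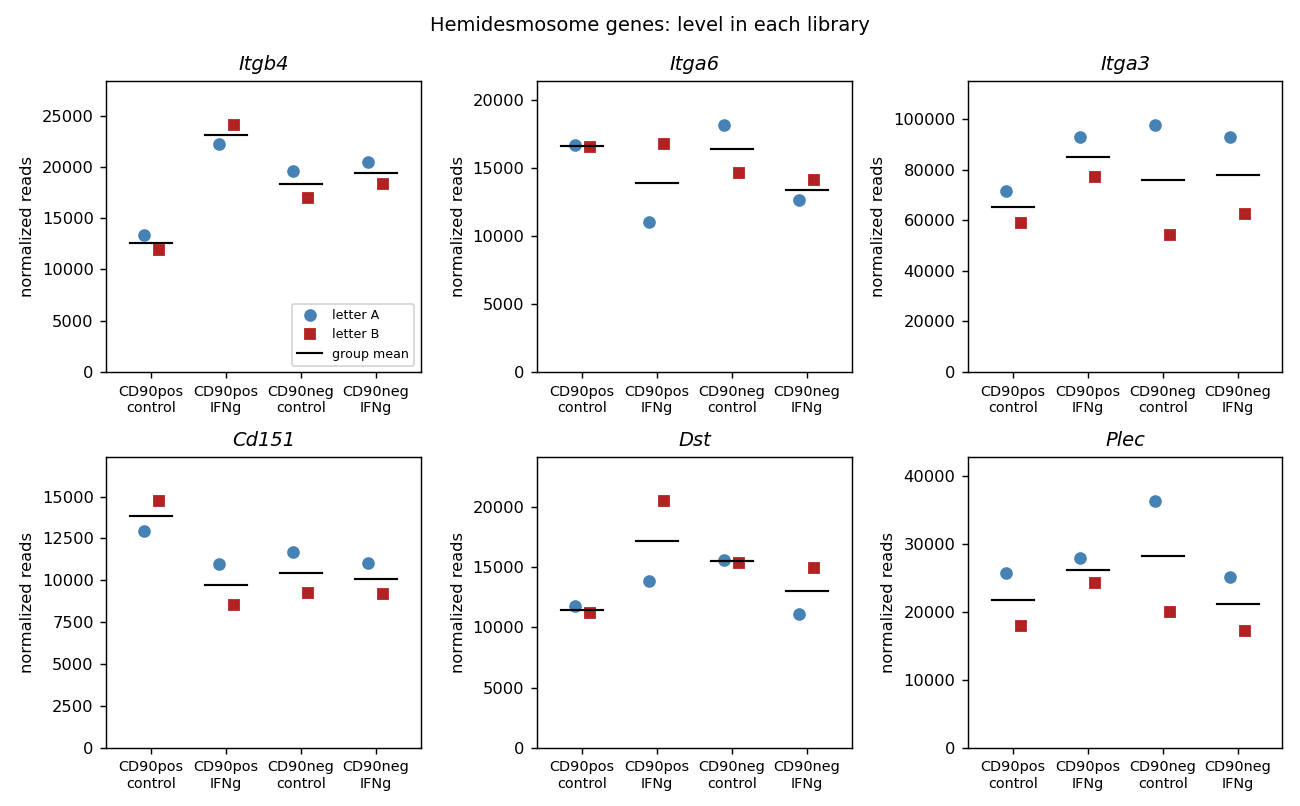
Level of each of the 6 genes in the 8 libraries, in normalized reads on linear axes that start at 0. Blue circles are the libraries with the letter A, red squares those with the letter B, and the black line is the mean of the group; Itgb4 is lowest in the CD90pos control libraries (11899 and 13346) and highest in the CD90pos IFNg libraries (22189 and 24034).

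Itgb4 was higher in the CD90pos libraries with IFNg than in those without, and it was the 1 member of 6 that passed the test there. Itgb4 (ENSMUSG00000020758.15, GRCm38 chr11:115974709-116008412, plus strand) was at 13346 and 11899 normalized reads in the CD90pos control libraries A and B and at 22189 and 24034 in the CD90pos IFNg libraries. Both treated libraries lay far above both controls, and the pairs did not overlap. The means were 12623 ± 1023 and 23112 ± 1304 (SD, n = 2), a 1.83-fold difference. The log2 fold change was 0.87 (SE 0.15, adjusted p = 0.0380, limma with Benjamini-Hochberg adjustment over 12962 genes). Within the letters it was 0.73 in A and 1.01 in B. With the letter as a block the SE was 0.13 and the adjusted p was 0.00532. The same comparison called 4.21% of all genes without the block and 27.6% with it.

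The Itgb4 call did not hold under every treatment of the data. With the block and with the trends of length and GC content removed, which are described further on, the log2 fold change was 0.39 and no longer passed (adjusted p = 0.0587). Compared with only the 4 CD90pos libraries in the fit, the adjusted p was 0.201. Without any 1 of the 8 libraries in turn it lay between 0.0715 and 0.260, with fold changes from 0.79 to 0.96 on the log2 scale, so each library, those of CD90neg cells included, was needed for the call in the fit without the block. With the block, 7 of the 8 omissions kept the call, and without CD90pos IFNg B the value was 0.73 with an adjusted p of 0.0612. On recovered reads the log2 fold change was 0.89 with edgeR (adjusted p = 0.0441) and 0.87 with DESeq2 (adjusted p = 1.9e-06).

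Itga6, which encodes the alpha subunit that pairs with the Itgb4 product, did not show the increase seen for Itgb4. Itga6 (ENSMUSG00000027111.15, chr2:71745616-71858416, plus strand) was at 16738 (A) and 16603 (B) normalized reads without IFNg and at 11016 and 16818 after IFNg. Library A was lower after IFNg, library B was level with the controls, and the groups overlapped. The log2 fold change was -0.29 (SE 0.23, adjusted p = 0.532; with the block 0.331), with -0.60 in A and 0.02 in B. The 95% interval from this fit ran from -0.85 to 0.27.

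The ratio of Itgb4 RNA to Itga6 RNA, which is not a ratio of the protein subunits, was also read in each library. Itgb4 relative to Itga6, both per kilobase of exons, was at 1.03 and 0.922 in CD90pos control libraries A and B, and at 2.59 and 1.84 in CD90pos IFNg libraries. It was at 1.39 and 1.49 in CD90neg control libraries and at 2.08 and 1.66 in CD90neg IFNg libraries. In each population both IFNg libraries lay above both controls, and the CD90pos control libraries were the lowest of the 8. The size of the ratio depends on the lengths used (0.554 and 0.498 in CD90pos control libraries with the longest transcripts), whereas the order of the libraries does not. No test was made of this ratio.

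**Figure D2:**
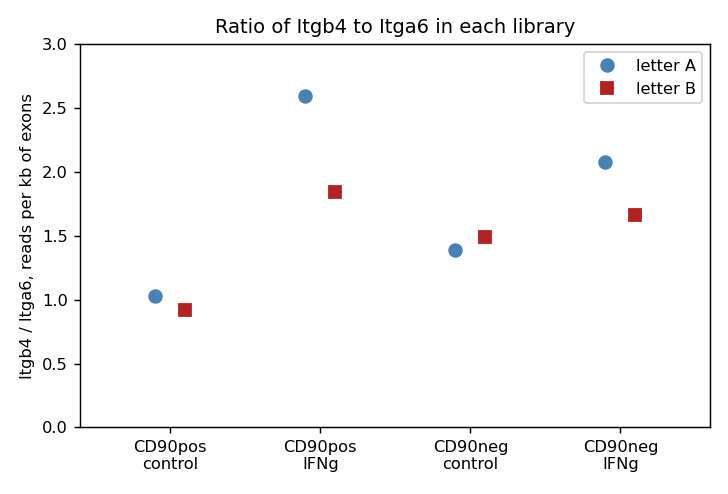
Ratio of Itgb4 to Itga6 in each of the 8 libraries, each gene in normalized reads per kilobase of exons, on an axis that starts at 0. Circles are letter A and squares letter B; the CD90pos control libraries are at 1.03 and 0.922 and every other library lies at 1.39 or above.

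The cytoplasmic linkers had the same sign as Itgb4 in CD90pos cells without passing the test, and that sign turned when length and GC trends were removed in the fit with the block (Dst -0.17, Plec -0.49). Dst (ENSMUSG00000026131.18, chr1:33908225-34308661, plus strand) was at 11755 (A) and 11183 (B) normalized reads without IFNg and at 13863 and 20507 with it. Both treated libraries lay above both controls, with a wide gap between the treated ones. The log2 fold change of Dst was 0.56 (SE 0.23, adjusted p = 0.225; with the block SE 0.18 and adjusted p = 0.0623). With the block and without CD90pos control A, Dst passed, at 0.75 and an adjusted p of 0.0420.

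Plec (ENSMUSG00000022565.15, chr15:76170974-76232574, minus strand) was at 25686 (A) and 17842 (B) normalized reads without IFNg and at 27905 and 24284 after IFNg. The groups overlapped, and library A was the higher of its pair in all 4 groups. The log2 fold change of Plec was 0.28 (SE 0.35, adjusted p = 0.725; with the block 0.247). Plec shares 205 exonic nucleotides with Parp10, a gene on the same strand that in CD90pos cells was at 668 ± 147 normalized reads without and at 4900 ± 111 with IFNg (SD, n = 2). The sources used here do not say how reads in shared exons were counted, and their part in the Plec totals was not tested.

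The second laminin receptor and its tetraspanin did not pass either. Itga3 (ENSMUSG00000001507.16, chr11:95044474-95076801, minus strand) was at 71756 (A) and 59062 (B) normalized reads without IFNg and at 92835 and 76993 after IFNg, where both libraries exceeded both controls. Its log2 fold change was 0.38 (SE 0.34, adjusted p = 0.603; with the block 0.174) and nearly the same in the letters, 0.37 in A and 0.38 in B. Cd151 (ENSMUSG00000025510.14, chr7:141467392-141471473, plus strand) was the member with the most negative value. It was at 12937 and 14732 in the control libraries and at 10973 and 8523 in the IFNg libraries, and the pairs did not overlap. Its log2 fold change was -0.51 (SE 0.20, adjusted p = 0.200; with the block SE 0.16 and adjusted p = 0.0515). With the block and without CD90pos control A, Cd151 passed, at -0.77 and an adjusted p of 0.00978. Cd151 shares 193 exonic nucleotides with Gm10575 on the opposite strand, which was at 65.1 to 214 normalized reads in the 8 libraries.

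In CD90neg cells none of the 6 genes passed the limma test for IFNg, without or with the block, against 0.64% and 4.14% of all genes called. Itgb4 was at 19619 (A) and 16938 (B) normalized reads without IFNg and at 20434 and 18310 after IFNg, and the groups overlapped. Its log2 fold change of 0.09 (SE 0.15) had a 95% interval from -0.27 to 0.44. Plec had the most negative value, with 36257 and 19988 in the controls, 25126 and 17107 after IFNg and a log2 fold change of -0.38 (SE 0.35; -0.53 in A and -0.22 in B). Itga6 was at 18161 and 14664 in the controls and at 12665 and 14151 after IFNg, and Dst was at 15644 and 15382 against 11086 and 14955. Both treated libraries lay below both controls for Itga6 and for Dst, with log2 fold changes of -0.29 (SE 0.23) and -0.27 (SE 0.23). Itga3 was at 97538 and 54210 in the controls and at 92900 and 62638 after IFNg, a difference of 0.07 (SE 0.34). Cd151 was at 11665 and 9240 in the controls and at 11049 and 9157 after IFNg, a difference of -0.05 (SE 0.20). The lowest unadjusted p of the 6 genes was 0.259, that of Itga6, and with the block the adjusted p lay between 0.379 and 0.955. At an unadjusted p below 0.05 in limma without the block, 729 of 12962 genes passed in this comparison and no member was among them. At that share none of 6 genes is the usual outcome, so it says little about the members.

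The difference between the IFNg effects in the populations was tested directly, as an interaction. It called 0% of genes with limma without and with the block and 0 genes with edgeR. Of 12962 genes, 826 had an unadjusted p below 0.05 in limma without the block, and DESeq2 called 171. The 826 are little above the share that this cut passes without any effect. The difference was 0.83 on the log2 scale for Dst (SE 0.33, adjusted p = 0.783), 0.79 for Itgb4 (SE 0.21, adjusted p = 0.783), 0.66 for Plec (SE 0.50, unadjusted p = 0.236 in limma) and 0.31 for Itga3 (SE 0.49), and it was -0.47 for Cd151 (SE 0.28) and -0.01 for Itga6 (SE 0.32). With the block the lowest adjusted p among the members was 0.179, that of Itgb4. DESeq2 called Itgb4, with a difference of 0.79 and an adjusted p of 0.0276. A larger response of any member in CD90pos than in CD90neg cells was therefore not shown by limma or edgeR.

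**Figure D3:**
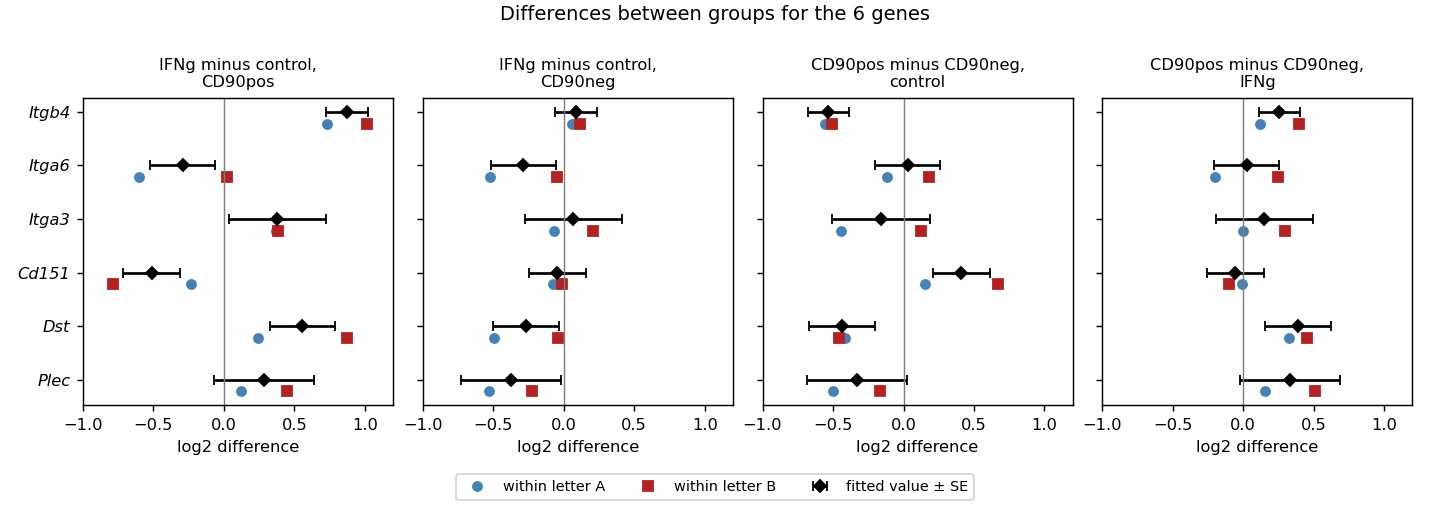
Differences of the 6 genes in 4 comparisons, as log2 values. Black diamonds with bars are the fitted value and its SE (fit without the block), circles and squares are the differences within the letters A and B; Itgb4 stands at 0.87 in CD90pos cells with IFNg and at -0.53 between the control populations, and lies near 0 in CD90neg cells with IFNg.

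Between the control populations, Itgb4 was the lower in CD90pos cells, a difference that passed in limma with the letter as a block and in DESeq2. The difference did not pass in limma without the block, nor in edgeR without or with the block. Itgb4 levels were 12623 ± 1023 in CD90pos and 18279 ± 1896 in CD90neg control cells (SD, n = 2), and the libraries did not overlap. The log2 difference was -0.53 (SE 0.15, adjusted p = 0.199), -0.56 in A and -0.51 in B. With the block the adjusted p was 0.0446 (SE 0.13), and with DESeq2 0.0148. Of the 8 omissions of a library with the block, only that of CD90pos control A kept the call (adjusted p = 0.0473). Without the block limma and edgeR called 0% of all genes in this comparison, while 1898 genes had an unadjusted p below 0.05 and DESeq2 called 987; with the block limma called 11.2%.

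The other members did not differ by these tests. The log2 difference between CD90pos and CD90neg control cells was -0.44 for Dst (SE 0.23, adjusted p = 0.474; with the block 0.162), -0.33 for Plec (adjusted p = 0.784), -0.16 for Itga3, 0.03 for Itga6 and 0.41 for Cd151 (SE 0.20, adjusted p = 0.429; with the block 0.134). With the block and without CD90pos control A, Cd151 passed, at 0.67 and an adjusted p of 0.0254. This comparison and the IFNg effect in CD90pos cells share the CD90pos control libraries, so opposite signs of a gene in the pair of them are not independent.

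After IFNg the populations were closer in Itgb4, at 23112 ± 1304 in CD90pos and 19372 ± 1501 in CD90neg cells (SD, n = 2). The log2 difference was 0.26 (SE 0.15) with a 95% interval from -0.10 to 0.61. Dst was at 0.39, Plec at 0.33, Itga3 at 0.15, Itga6 at 0.02 and Cd151 at -0.06. None of the 6 passed, and the lowest unadjusted p was 0.133, that of Itgb4. In this comparison limma called 0% of genes without and with the block, edgeR called 0 and DESeq2 called 1, and 17 genes had an unadjusted p below 0.05. Even Thy1, which encodes the sort marker, passed neither limma fit, at a log2 difference of 5.58 (adjusted p = 0.432 with the block). A member that did not pass was therefore not shown to be alike in the populations. The mean level of Itgb4 thus ran from CD90pos IFNg through CD90neg IFNg and CD90neg control to CD90pos control. The first step does not pass a test, the libraries of the middle pair overlap, and the last step passed only in limma with the block or in DESeq2.

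Fold changes moved with transcript length in the same libraries, and the members are spread along that scale. The longest transcript is 23279 nucleotides for Dst, 15455 for Plec, 6208 for Itgb4, 4861 for Itga3, 4310 for Itga6 and 1865 for Cd151. Dst thus exceeds 99.9% and Itgb4 86.6% of genes in length, and Cd151 exceeds 18.4%. Across 12947 genes, which are not independent replicates, Spearman's coefficient between length and the log2 fold change was 0.279 for IFNg in CD90pos cells, 0.016 for IFNg in CD90neg cells, -0.294 between the control populations and 0.360 for the interaction. For IFNg in CD90pos cells, the median log2 fold change was -0.47 in the shortest of 10 similarly sized length classes and 0.27 in the longest. The 320 genes above 10000 nucleotides had medians of 0.35 for IFNg in CD90pos cells, -0.08 in CD90neg cells, -0.30 between the control populations and 0.43 for the interaction.

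**Figure D4:**
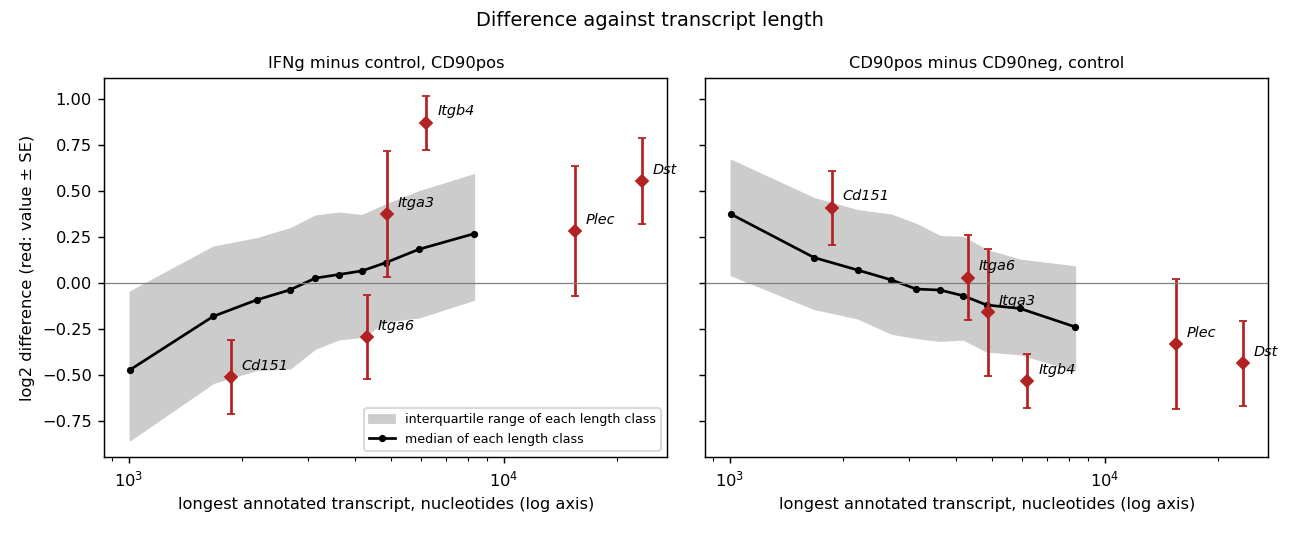
Log2 difference against the longest annotated transcript (log axis), for IFNg in CD90pos cells and for CD90pos against CD90neg control cells. The black line and grey band give the median and the interquartile range in 10 classes of genes by length, and red diamonds the 6 genes with their SE; Itgb4 lies outside the band in both comparisons (0.87 and -0.53).

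When the trends of each library with length and GC content were removed in the fit with the block, the values of Itgb4, Dst, Plec and Itga3 shrank or turned. For IFNg in CD90pos cells Itgb4 lost its call at 0.39, and the adjusted p was 0.399 for Dst and 0.0661 for Plec at the values given above. Itga3 was at -0.05, also of opposite sign to its value above, and Itga6 was at -0.49. Cd151 was at -0.54 and passed (adjusted p = 0.0441), the 1 member that did. Between the control populations Itgb4 was at -0.04 (adjusted p = 0.863), Dst at 0.01, Plec at 0.39 and Itga3 at 0.22. The interaction was 0.28 for Itgb4, 0.20 for Dst and -0.17 for Plec. The part of RNA quality or library preparation in the length trend was not tested.

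The members did not vary as a unit over the 8 libraries. Pearson's r of the log2 levels was highest between Itga3 and Plec (0.858) and next between Itgb4 and Dst (0.641), and it was -0.386 between the integrin partners Itgb4 and Itga6. It was lowest between Dst and Cd151 (-0.785) and between Itgb4 and Cd151 (-0.728). These coefficients are a description, since the libraries share letters and treatments. Of all genes tested, those most like Itgb4 by the same r included Erf (0.975) and Ptgfrn (0.961). Itga6 was most like Sfxn2 (0.965), Shroom4 (0.952) and Chst1 (0.937), and Itga3 was most like Ydjc (0.986), Aspg (0.976) and Gli3 (0.972). For Dst they were Zfyve9 (0.958), Mdn1 (0.929) and Herc2 (0.919), for Plec Gnptab (0.964), Tbc1d2 (0.958) and Tcf7l1 (0.950), and for Cd151 Psmb5 (0.989), Snx3 (0.989) and Lias (0.984). Of the genes named, Chst1 (14.8 to 101 normalized reads), Aspg (39.5 to 90.6) and Ydjc (52.0 to 142) were low in level. Picking the highest of so many genes over 8 libraries gives high coefficients by itself.

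Of the partners of a hemidesmosome, Col17a1 and Krt5 differed between the letters far more than the 6 genes did. Col17a1, a transmembrane collagen of hemidesmosomes, was at 116 and 5623 normalized reads in CD90pos control libraries A and B, at 289 and 9321 in CD90pos IFNg, at 67.9 and 642 in CD90neg control and at 169 and 1933 in CD90neg IFNg. Library B was higher than A in all 4 groups, by 3.22 to 5.59 on the log2 scale. Krt5, a basal keratin to which hemidesmosomes anchor, was at 393 and 13087 in CD90pos control libraries A and B. For the 6 members the largest difference between the letters was 0.86, that of Plec in CD90neg control cells, where A was the higher.

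Of the laminin chains, Lama3 and Lamb3 differed more between the letters in CD90pos than in CD90neg cells, a pattern that Lama5 did not share. Lama3 was at 680 and 7879 normalized reads in CD90pos control libraries A and B and at 939 and 2674 in CD90neg control libraries. Lamb3 was at 3641 and 12853 in CD90pos control and at 5912 and 6048 in CD90neg control libraries. In CD90pos cells B was the higher library for both chains, by 2.84 to 3.53 on the log2 scale for Lama3 and 1.27 to 1.82 for Lamb3, whereas in CD90neg control cells Lama3 was higher in B by 1.51 and Lamb3 was nearly level. Lama5 was the higher in A, by 0.86 in CD90pos and 0.78 in CD90neg control cells. After IFNg its difference was 0.10 in CD90pos and 0.57 in CD90neg cells. With IFNg, the log2 fold changes in CD90pos cells were 0.32 for Lama3, -0.21 for Lamb3 and 1.02 for Col17a1, and none passed (adjusted p with the block 0.716, 0.747 and 0.212). In CD90neg cells they were 0.13, -0.45 and 1.45 in the same order, and none passed. Col17a1 was higher after IFNg in both letters of both populations.

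**Figure D5:**
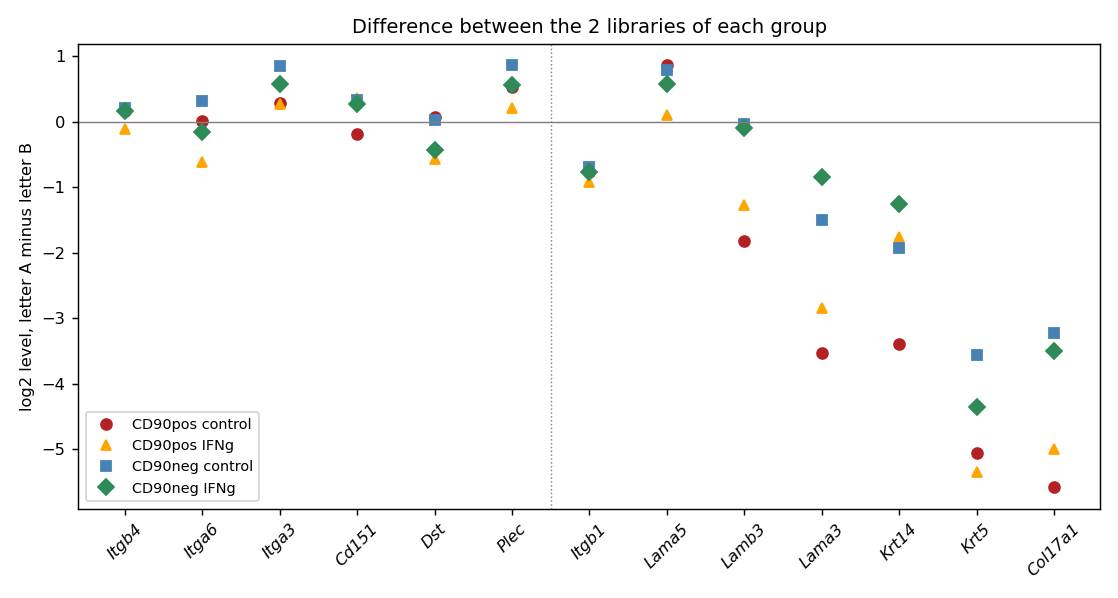
Difference between the library with the letter A and that with the letter B in each of the 4 groups, as log2 of normalized reads, for the 6 genes (left of the dotted line) and for laminin chains, keratins, Itgb1 and Col17a1 (right). The 6 genes stay within 0.86 of 0, whereas Col17a1 lies between -3.22 and -5.59.

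Itgb1, the beta subunit that pairs with the Itga3 product, had the opposite sign to Itgb4. It was at 65922 and 111840 normalized reads in CD90pos control libraries A and B and at 41359 and 78733 after IFNg, lower in both letters. Its log2 fold change of -0.59 passed only with the block (SE 0.14, adjusted p = 0.0228; without it 0.545). In CD90neg cells the value was -0.47 (adjusted p with the block 0.154). Itgb1 relative to Itgb4, both per kilobase of exons, was at 8.49 and 16.2 in CD90pos control libraries A and B and at 3.20 and 5.63 in CD90pos IFNg libraries. It was at 4.61 and 8.62 in CD90neg control and at 3.09 and 5.90 in CD90neg IFNg libraries, so within each letter it was highest in CD90pos control cells.

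Related adhesion genes were counted by list for IFNg in CD90pos cells, where the median of all genes was 0.01. Of 10 desmosome genes, which build the junctions between epithelial cells, Pkp4 rose (log2 fold change 1.04, adjusted p = 0.0325) and Perp fell (-1.11, adjusted p = 0.0471), and with the block 5 were higher and 1 lower, with Pkp3 (0.67) and Dsg2 (0.83) among the higher. The list median was 0.50. In the other adhesion lists no gene passed without the block. With it, 3 of 16 other integrin subunits were lower, the collagen receptor subunit Itga2 (-1.34), Itgb1 and Itgav (-0.52), and none was higher (list median -0.44). Of 9 keratins and other anchor partners 1 was higher, the plakin Evpl (0.73), with a list median of 0.35. Of 10 laminin chains Lama4 (1.25) and Lama5 (0.69) were higher, with a list median of -0.14.

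Of 19 tetraspanins 4 were higher and 4 lower with the block, among them Tspan15 (1.15), Tspan6 (-1.47), Cd9 (-0.92) and Tspan14 (0.48), with a list median of -0.26. Of 25 focal adhesion genes Tns4 (1.36), the kinase gene Src (0.56) and the talin gene Tln1 (0.56) were higher and none was lower, with a list median of 0.14. Of 11 genes for receptors and other signalling proteins that act with laminin integrins, Igf1r (0.85), Fyn (0.96) and Ptpn11 (0.46) were higher, with a list median of 0.41. These shares stand beside the 27.6% of all genes called with the block. In the same libraries 3 of 12 basal markers were lower with the block, Acta2 (-1.01), Tagln (-1.57) and Cnn1 (-1.64), and 4 of 17 luminal markers were higher, Cdh1, Kit, Cldn7 and Krt18; their part in the values of the 6 genes was not tested.

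In CD90neg cells with IFNg, Tspan15 (1.17) and Tns4 (0.96) were higher with the block, 1 of 19 tetraspanins and 1 of 25 focal adhesion genes, and no other adhesion gene of these lists was called, beside 4.14% of all genes. Between the control populations, limma made calls only with the block, in 11.2% of all genes. Of the 9 anchor partners Krt5 was higher in CD90pos cells (2.79) and Evpl (-1.16) and the desmosomal plakin Dsp (-0.49) were lower, and of the 10 laminin chains Lama5 was lower (-0.83). Of the 10 desmosome genes Perp was higher (0.88) and Pkp3 (-0.66), Jup (-0.51) and Pkp4 (-0.48) were lower. Of 19 tetraspanins 4 were higher, Tspan6 (1.31), Cd9 (0.69), Tspan18 (1.58) and Cd63 (0.59), and of 25 focal adhesion genes Tgfb1i1 was higher (2.00) and Src was lower (-0.57). Of 12 basal markers 6 were higher in CD90pos control cells, Acta2 (2.36) and Tagln (2.75) among them, while of 17 luminal markers none was called. No integrin subunit other than Itgb4 was called in that comparison. After IFNg and for the interaction none of these genes was called in either limma fit.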

How the data were processed

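RNA of sorted PyMT cells was sequenced in 8 libraries, 2 in each of 4 groups. The authors deposited 1 table of normalized reads per gene (a signal at or above 0). The submitters' processing notes name STAR and HTSeq, without versions, and the mm10 (GRCm38) build; per the labels' protocols, libraries were stranded and mRNA-based. The counting's strand setting and the filter behind the table are not given in the sources used here. Whole reads were recovered by dividing each column by its step, which gave whole numbers for 100% of values within a tolerance of 0.001. A floor of 3 reads was worth 2.55 to 3.37 normalized reads. These floors hold for counting error alone, because PCR copies cannot be recognised without molecular identifiers.

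Values were analysed as log2(normalized reads + 1) with limma 3.58.1 (R 4.3.3), 1 mean per group, all 8 libraries and a variance trend, for the 12962 genes that reached 10 normalized reads in 2 or more libraries. Tests were two-sided, adjusted by the Benjamini-Hochberg method over all genes, and called at an adjusted p under 0.05. All adjusted p-values come from this fit unless another is named, and fold changes are on the log2(value + 1) scale. The script was tested on simulated data that held no letter effect and no length trend, so that test does not cover these features of the real data. Recovered reads were tested with edgeR 4.0.16 and DESeq2 1.42.0 as alternatives. Coordinates and lengths come from GENCODE release 21 for mouse (GRCm38), and promoters from RefSeq.

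The letters A and B were also fitted as a replicate block. Labels do not say what they stand for. The A minus B differences correlated across genes with coefficients of 0.779 to 0.920 over the 6 pairs of groups, which was the ground for treating the letters as pairs. P-values measure the spread between these samples only, which may be technical. The 6 genes, the lists and the tests were chosen with earlier results of these data known. All 6 members were named; genes of other lists were named where called with the block, at most 4 per list and comparison with the smallest p. Itgb1, Col17a1, Lama3 and Lamb3 were named in any case, and genes were named per member from the 3 with the highest Pearson r. Some items that these rules take are not reported here. Krt5, Parp10, Epcam and the marker genes were added as context after their values were seen.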

Additional observations from a re-analysis of the deposited data

Results flagged for a closer look

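Dst and Plec had IFNg effects of opposite sign in the populations, in both letters. For Dst the effect in the CD90pos population exceeded that in the CD90neg population by 0.83 on the log2 scale (0.73 in A and 0.92 in B), with effects of 0.56 in CD90pos and -0.27 in CD90neg cells. The effect on Dst in CD90neg cells was -0.50 in A and -0.04 in B, so in B it was close to 0. The interaction test did not pass for Dst (adjusted p = 0.783 in limma, and 0.221 with the block). For Plec the difference was 0.66 (0.65 in A and 0.67 in B), with effects of 0.28 and -0.38, and the test did not pass (unadjusted p = 0.236 in limma, and adjusted p = 0.254 with the block). With the length and GC trends removed the differences were 0.20 for Dst and -0.17 for Plec.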

How the results depend on the processing

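For IFNg in CD90pos cells 1 member was called, 0 with only the 4 libraries compared, and 0 to 3 when each library was left out in turn. Between the control populations 0 were called, 1 with the replicate block, 1 with DESeq2, and 0 to 2 with libraries left out. For the interaction 0 were called and 1 with DESeq2. Pseudocounts of 0.5 and 5, other filters, quantile normalization and median centring changed none of these counts. The replicate block changed no other call of a member. Over all genes, calls went from 546 to 3578 for IFNg in CD90pos cells, 83 to 537 in CD90neg cells and 0 to 1451 between the control populations with the block, and to 2042, 367 and 987 with DESeq2. With the block and the length and GC trends removed, signs turned for IFNg in CD90pos cells (Itga3 -0.048, Dst -0.17, Plec -0.49), between the control populations (Itga3 0.22, Dst 0.0058, Plec 0.39) and for the interaction (Itga3 -0.062, Plec -0.17). Values close to 0 also turned. With quantile normalization Itga6 was at -0.0046 between control and -0.011 between IFNg populations, and Itga3 at -0.019 between the latter. The Itga6 interaction was 0.0033 with median centring, 0.025 with edgeR, 0.031 with DESeq2 and 0.021 with edgeR and the block.

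Leaving out each library, with and without the block, gave ranges that crossed 0. For IFNg in CD90pos cells this was Itga6 (-0.62 to 0.039). In CD90neg cells it was Plec (-0.81 to 0.053), Cd151 (-0.21 to 0.12), Itgb4 (-0.020 to 0.19) and Itga3 (-0.35 to 0.49). Between the control populations it was Itga6 (-0.25 to 0.31), Itga3 (-0.58 to 0.26) and Plec (-0.76 to 0.10), and between the IFNg populations Itga6 (-0.31 to 0.36), Cd151 (-0.24 to 0.13) and Itga3 (-0.14 to 0.43). For the interaction it was Itga6 (-0.34 to 0.33) and Itga3 (-0.12 to 0.73). The cause was not tested. Where a group was left with 1 library, it was assumed to vary like the others.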
